A study of Mus musculus with 8 samples.

Results

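The genes described here encode 9 carriers that move sugars or small acids across membranes: the hexose transporters Slc2a1, Slc2a3, Slc2a5, Slc2a6 and Slc2a8, and the SLC16 carriers Slc16a1, Slc16a3, Slc16a6 and Slc16a7. They were taken by gene symbol from 19938 genes measured on the arrays, and each was represented by the probe set with the highest mean over the 8 arrays; all 9 had a single probe set. Cells with high CD11b and intermediate CD45, the surface features of microglia, were sorted from whole brains of 17-week-old Swiss Webster mice. The 4 MFP2 knockout arrays carry samples labelled as knockout for multifunctional protein-2, an enzyme of peroxisomal beta-oxidation encoded by Hsd17b4, and the 4 control arrays carry samples labelled wild type. All samples are labelled female. The labels do not say how the knockout was made, nor whether each numbered replicate is a separate animal, so each p-value rests on the variation among these samples alone, part of which may be technical. The comparison asks how microglia differ when MFP2 is missing.

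Cells take up glucose and fructose by facilitated diffusion through SLC2 proteins (GLUTs), which differ in substrate and in whether they sit at the cell surface or on internal membranes. Some members of the SLC16 family, but not all, carry lactate, pyruvate and ketone bodies together with a proton, inward or outward according to the gradient. In macrophages, a switch toward glycolysis is usually accompanied by more glucose uptake through GLUT1 and more lactate export through MCT4, and in the brain the fructose transporter GLUT5 is known as a microglial gene.

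In knockout microglia 3 of the 9 transporter genes were called higher (Slc2a1, Slc2a6 and Slc16a3) and 2 were called lower (Slc2a5 and Slc16a7), while 4 did not pass the test (Slc2a3, Slc2a8, Slc16a1 and Slc16a6). A gene is called when its limma adjusted p over all tested genes is under 0.05. Over all 19938 genes 5.38% were called higher and 4.17% lower, 9.55% together. The median log2 change of the 9 genes was 0.14, against -0.02 over all tested genes. The largest change was the fall of Slc2a5. The values given are the deposited log2 expression values, on which a difference of 1 is a doubling of signal. They can be compared between arrays for 1 gene but not between genes. Where a gene is placed against the median gene, or signals are summed over markers, differences between probe sets enter. Such placements and sums are therefore only rough guides.

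**Figure D1:**
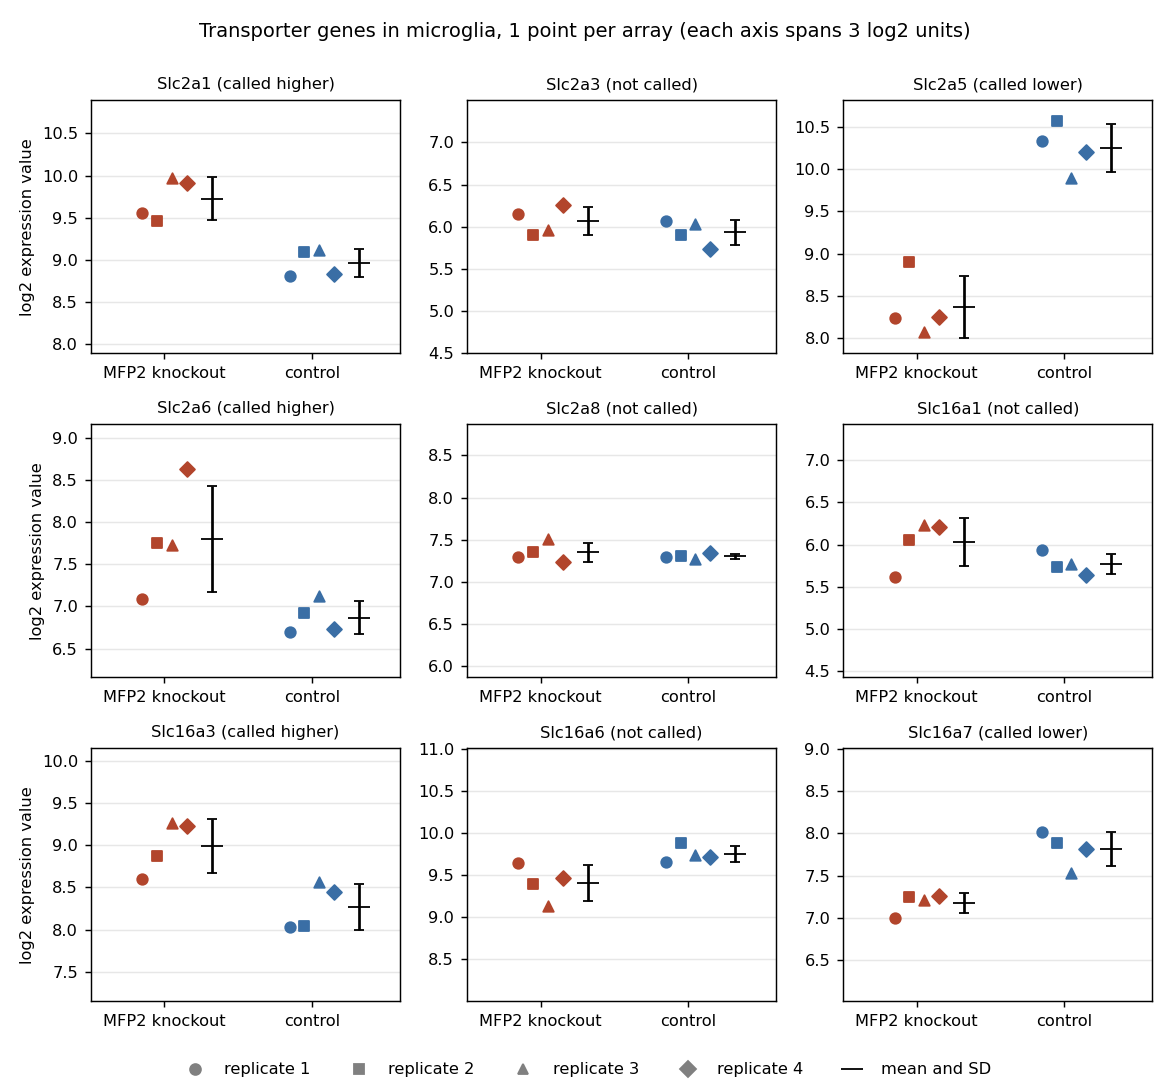
Log2 expression value (vertical axes, each spanning 3 log2 units) of the 9 transporter genes in MFP2 knockout arrays (left, red) and control arrays (right, blue); symbols give the replicate number, and the bar beside each group is its mean and SD. For Slc2a5 the knockout arrays lie between 8.07 and 8.90 and the control arrays between 9.90 and 10.57, while for Slc2a8 both groups lie between 7.24 and 7.50.

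The checks of the arrays bear on every value that follows. Hsd17b4 had 4.76, 7.20, 5.21 and 5.20 in knockout 1 to knockout 4, against 8.83, 9.09, 8.15 and 7.82 in control 1 to control 4. The groups did not overlap, and knockout 2 was the closest to the controls. The change was -2.88 ± 0.44 (SE; limma adjusted p = 0.00158). Transcripts that report sex matched the female label on 7 of 8 arrays and not on control 1. Control 3 was the control closest to the knockouts on the leading principal component (48.7% of the variance). Of 7 measured microglial markers 6 were called lower and 0 higher, and their linear signal summed to between 18990 and 22466 in knockout arrays, against 28106 to 32087 in controls. Neuronal markers were below the median gene for 8 of 8, with 0 called. Astrocyte markers had 2 of 8 called higher (Gfap and Aldoc) and oligodendrocyte markers 1 of 7 (Mbp). Border macrophage markers had 4 of 8 lower and 1 higher, with summed signals of 463 to 765 in knockouts and 742 to 1107 in controls. Neutrophil markers had 0 of 8 called but spread widely, from 7067 to 12562 in knockouts and from 2923 to 19572 in controls. The lowest sum was in control 1 and the highest in control 3. Of these markers only 1 was below the median gene in level. Lymphocyte markers had 0 of 7 called, but all 7 changes were positive, with a median log2 change of 0.35. Their signals summed to 703 to 1013 in knockouts and 527 to 810 in controls, which overlap. Monocyte markers had 1 of 5 higher (Fn1) and 1 lower (Ccr2). The monocyte list summed to 568 to 3069 in knockouts and 435 to 799 in controls, and most of the highest knockout sum was Fn1: the other 4 markers summed to 273 to 739 in knockouts and 334 to 583 in controls, which overlap. The astrocyte list summed to 865 to 935 in knockouts and 799 to 890 in controls, and the oligodendrocyte list to 650 to 725 in knockouts and 575 to 639 in controls. The median log2 change was 0.12 for the astrocyte list and 0.02 for the oligodendrocyte list, in which Mbp alone was called, by 0.59. No deposited value was 0, since dim probe sets keep a background level. The part of these differences in the transporter results was not tested, and fewer cells of a type cannot be told apart from less RNA per cell in sorted bulk samples.

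Promoter sequences are shown for the clearest falling gene and for Slc2a1 and Slc16a3, which rose and are textbook targets of the oxygen-sensing factor HIF-1, whose subunit gene Hif1a is described further on. RefSeq promoters (GRCm38.p6) were at hand for 6 of the 9 genes (Slc2a1, Slc2a5, Slc2a6, Slc2a8, Slc16a1 and Slc16a3). Each window is the 250 bases before the start of the gene, 5′ to 3′ on the gene's strand, and capitals mark ACGTG or GCGTG on either strand, the core letters of a hypoxia response element. The windows are chr4:119108495-119108744 (plus strand) for Slc2a1, chr11:120948817-120949066 (plus strand) for Slc16a3 and chr4:150119094-150119343 (plus strand) for Slc2a5.
Slc2a1: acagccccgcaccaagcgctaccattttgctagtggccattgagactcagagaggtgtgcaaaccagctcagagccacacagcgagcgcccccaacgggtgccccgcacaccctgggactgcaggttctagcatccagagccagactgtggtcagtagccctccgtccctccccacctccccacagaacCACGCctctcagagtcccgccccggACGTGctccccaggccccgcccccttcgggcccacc
Slc16a3: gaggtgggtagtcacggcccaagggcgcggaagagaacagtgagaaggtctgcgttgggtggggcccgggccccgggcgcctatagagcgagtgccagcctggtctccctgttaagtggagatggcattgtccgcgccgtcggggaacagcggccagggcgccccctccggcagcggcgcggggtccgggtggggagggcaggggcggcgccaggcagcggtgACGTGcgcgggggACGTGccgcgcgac
Slc2a5: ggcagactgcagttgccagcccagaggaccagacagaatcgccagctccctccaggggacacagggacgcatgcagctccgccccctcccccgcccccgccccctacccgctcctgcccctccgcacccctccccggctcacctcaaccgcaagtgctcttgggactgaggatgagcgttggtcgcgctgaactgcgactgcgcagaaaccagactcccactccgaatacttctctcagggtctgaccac

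The Slc2a1 window held 1 ACGTG, beginning 36 bases before the start, and 1 GCGTG on the opposite strand. The Slc16a3 window held 2 ACGTG, beginning 27 and 14 bases before the start. In the Slc2a5 window neither motif was found, and it held 3 copies of CCGCCC, the core of a GC box. ACGTG or GCGTG was in 5 of the 6 available windows and in 38.6% of 32851 promoter windows of that length. The windows of Slc16a1 and Slc2a8, which were not called, are among the 5. Over both strands there were 4 matches each for Slc16a1 and Slc2a6, 2 each for Slc2a1 and Slc16a3, and 1 for Slc2a8. ACGTG alone was in 3 of the 6 windows and 16.6% of all, and CCGCCC in 5 of the 6 and 32.7% of all. The 6 windows are richer in G and C than the median window, at 52.8% to 76.4% against 52.4%. In the Slc16a1 window an ACGTG on each strand overlaps in CACGTG. A match is a description of letters and not a bound site. The printed windows were chosen by the calls and by known HIF-1 targets, so the motifs in them are no test of HIF-1. The part of HIF-1 in the transporter changes was not tested.

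Slc2a5, the fructose carrier GLUT5, fell most. It had 8.24, 8.90, 8.07 and 8.25 in knockout 1 to knockout 4, against 10.34, 10.57, 9.90 and 10.20 in control 1 to control 4. Every knockout value was below every control value, and the distance between the lowest control array (control 3) and the highest knockout array (knockout 2) was 0.99. The mean was 8.37 ± 0.37 in knockouts and 10.25 ± 0.28 in controls (SD, n = 4 each), a change of -1.89 ± 0.18 (SE; 95% interval -2.28 to -1.50), or 3.70-fold lower (limma adjusted p = 0.000209). By the size of its change Slc2a5 stood at place 42 of all tested genes. Slc2a7, a neighbouring gene on chromosome 4, had 5.57 in knockouts and 5.60 in controls and was not called (limma adjusted p = 0.933).

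Slc2a1, the basal glucose transporter GLUT1, rose. Its values were 9.56, 9.46, 9.97 and 9.91 in knockout 1 to knockout 4, against 8.81, 9.09, 9.11 and 8.83 in control 1 to control 4. The groups did not overlap: the lowest knockout array (knockout 2) was 0.35 above the highest control array (control 3). Knockout 3 and knockout 4 were the highest of the 8. The change was 0.76 ± 0.13 (SE; 95% interval 0.48 to 1.05), or 1.70-fold (limma adjusted p = 0.00293, n = 4 each). Slc2a1 is also a gene of the brain's endothelium. Of 9 measured endothelial markers 1 was called higher, Flt1, by 1.99, and 0 lower. The other 8 were below the median gene in level, among them the tight junction gene Cldn5, with 5.69 in knockouts and 5.79 in controls. The summed linear signal of the endothelial list was 406 to 616 in knockouts and 306 to 378 in controls. Flt1 alone made this gap: the other 8 markers summed to 249 to 285 in knockouts and 266 to 285 in controls, and the median log2 change of the list was -0.02. The part of the endothelial list in the Slc2a1 result was not tested.

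Slc2a6 encodes GLUT6, which in mouse macrophages sits on lysosomal membranes. It was called higher, with a wide spread among knockouts: 7.09, 7.75, 7.72 and 8.63 in knockout 1 to knockout 4, against 6.69, 6.92, 7.13 and 6.73 in control 1 to control 4. The groups overlapped slightly, since knockout 1 lay below control 3. The mean was 7.80 ± 0.63 in knockouts and 6.87 ± 0.20 in controls (SD, n = 4 each), a change of 0.93 ± 0.24 (SE), or 1.91-fold (limma adjusted p = 0.0304). This call was not firm. It was lost without knockout 2 (limma adjusted p = 0.0526), knockout 3 (0.0643), control 1 (0.0837), control 2 (0.0795) or control 4 (0.0811), and with an intensity trend and robust prior (0.0790). Without knockout 4 the change was 0.66, and without knockout 1 it was 1.17.

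The other hexose carriers showed no detectable change. Slc2a3, the high-affinity glucose transporter GLUT3 known from neurons, had 6.15, 5.91, 5.96 and 6.26 in knockout 1 to knockout 4, against 6.06, 5.90, 6.03 and 5.74 in control 1 to control 4. The groups overlapped, and the 95% interval of the change ran from -0.10 to 0.37 (limma adjusted p = 0.553). Slc2a8, the intracellular transporter GLUT8, had 7.30, 7.36, 7.50 and 7.24 in knockout arrays, against 7.29, 7.31, 7.28 and 7.34 in control arrays, in the same order. Its control arrays lay within the range of its knockout arrays, and the 95% interval of its change, -0.14 to 0.23, excludes a change as large as that of Slc2a1 (limma adjusted p = 0.842).

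Among the monocarboxylate carriers, Slc16a3 rose. It encodes MCT4, the low-affinity form through which glycolytic cells release lactate. Its values were 8.60, 8.87, 9.27 and 9.23 in knockout 1 to knockout 4, against 8.03, 8.05, 8.56 and 8.44 in control 1 to control 4. The groups did not overlap, but the lowest knockout array (knockout 1) was only 0.03 above the highest control array (control 3). The change was 0.72 ± 0.17 (SE; 95% interval 0.36 to 1.08), or 1.65-fold (limma adjusted p = 0.0154, n = 4 each). The call was lost without knockout 3 (limma adjusted p = 0.0531), control 1 (0.0522) or control 2 (0.0611), with changes of 0.63 to 0.65.

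Slc16a7 fell. It encodes MCT2, a high-affinity carrier that favours uptake of pyruvate, lactate and ketone bodies. It had 7.00, 7.24, 7.21 and 7.26 in knockout 1 to knockout 4, against 8.02, 7.89, 7.53 and 7.82 in control 1 to control 4. The 4 knockout arrays were close together and all lay below control 3, the lowest control array. The mean was 7.18 ± 0.12 in knockouts and 7.82 ± 0.21 in controls (SD, n = 4 each), a change of -0.64 ± 0.11 (SE), or 1.56-fold lower (limma adjusted p = 0.00339).

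Slc16a1 and Slc16a6 did not pass the test. Slc16a1 encodes MCT1, the widely expressed carrier of intermediate affinity, and had 5.62, 6.06, 6.24 and 6.21 in knockout 1 to knockout 4, against 5.93, 5.73, 5.77 and 5.64 in control 1 to control 4. Knockout 1 was the lowest of all 8 arrays and the other knockout arrays were the highest. The change was 0.26 (95% interval -0.03 to 0.55; limma adjusted p = 0.298), and without knockout 1 it was 0.40 and passed (limma adjusted p = 0.0310). Slc16a6 encodes MCT7, known in zebrafish liver as an exporter of the ketone body beta-hydroxybutyrate. It had 9.65, 9.40, 9.13 and 9.47 in knockout arrays, against 9.66, 9.88, 9.74 and 9.72 in control arrays. The groups were separated by 0.01, between knockout 1 and control 1, and the change of -0.34 ± 0.11 (SE) missed the threshold (limma adjusted p = 0.0827). It passed without knockout 1 (limma adjusted p = 0.0329), after quantile normalization (0.0443) and after cyclic loess (0.0299).

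**Figure D2:**
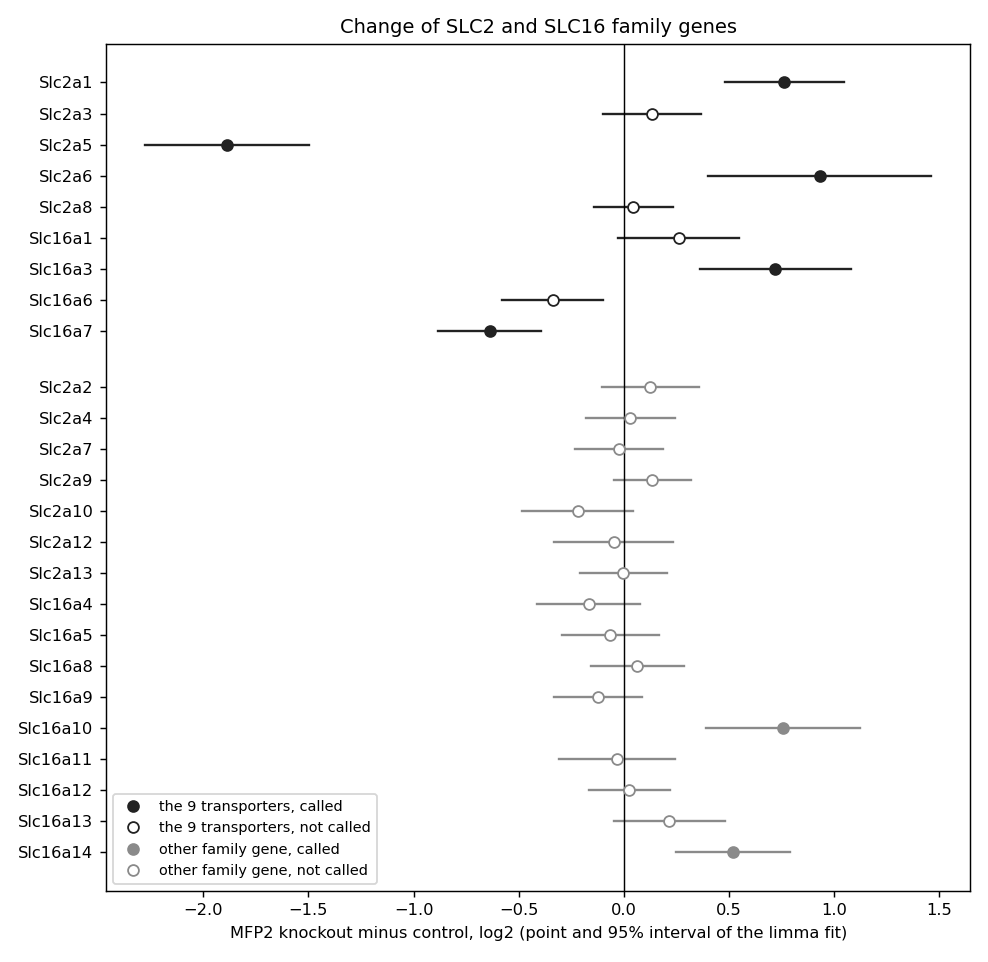
Change of each SLC2 and SLC16 gene, knockout minus control on the log2 scale (horizontal axis), with the 95% interval of the limma fit; filled points passed the test, black marks the 9 transporters and grey the other 16 measured family genes. Slc2a5 at -1.89 lies apart from all others, and Slc16a10 and Slc16a14 are the filled grey points.

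Whether family members changed unequally was tested directly, on the difference between a pair's log2 values in each array, over 10 pairs of hexose carriers and 6 pairs of SLC16 carriers. The exact two-sided permutation test over the 8 arrays gave p = 0.0286, the smallest it can give, for 10 of the 16 pairs (0.0457 after Benjamini-Hochberg adjustment over the pairs), and pairs that share a gene are not independent. The change of Slc2a1 exceeded that of Slc2a3 by 0.63, that of Slc2a8 by 0.72 and that of Slc2a5 by 2.65. Among the SLC16 carriers, the change of Slc16a3 exceeded that of Slc16a7 by 1.36, that of Slc16a6 by 1.06 and that of Slc16a1 by 0.46. The changes of the pair Slc16a6 and Slc16a7 could not be told apart, with a difference of 0.30 (exact permutation p = 0.229), nor could those of Slc2a1 and Slc2a6, with a difference of -0.17 (exact permutation p = 0.629). Although Slc2a6 was called and Slc2a3 and Slc2a8 were not, the pair test did not separate it from either. Its change exceeded that of Slc2a8 by 0.89 (exact permutation p = 0.0571), and the change of Slc2a3 minus that of Slc2a6 was -0.80 (exact permutation p = 0.114). The pairs Slc16a1 and Slc16a6 (0.60, exact permutation p = 0.0857) and Slc2a3 and Slc2a8 (0.09, exact permutation p = 0.571) were not separated either. The pairs were compared after the single genes had been seen. Slc2a3 and Slc16a1 were below the median gene in level, and changes of dim genes are compressed. The part of this compression in the differences of their pairs was not tested.

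The knockout and control arrays did not overlap for 5 of the 9 genes (Slc2a1, Slc2a5, Slc16a3, Slc16a6 and Slc16a7), against 14.0% of all tested genes. These are not the 5 called genes, since Slc2a6 overlapped and was called and Slc16a6 did not overlap and was not called. Control 3 was the control array nearest to the knockouts in all 5 called genes. Relative to the control mean it stood at -0.36 for Slc2a5, -0.28 for Slc16a7, 0.15 for Slc2a1, 0.26 for Slc2a6 and 0.29 for Slc16a3, in the direction of the knockouts each time. Knockout 2 was the knockout array nearest to the controls for Slc2a5 and Slc2a1, knockout 1 for Slc2a6 and Slc16a3, and knockout 4 for Slc16a7. Without control 3 and knockout 2 together the changes were -2.18 for Slc2a5, 0.90 for Slc2a1, 0.86 for Slc16a3, -0.75 for Slc16a7 and 1.03 for Slc2a6. All of these kept their calls except that of Slc2a6 (limma adjusted p = 0.0628). Because control 3 lay toward the knockouts in all 5 called genes, leaving it out widens their changes. The kept calls are therefore not independent support. Without control 1, the array that went against its sex label, the changes were -1.86 for Slc2a5, 0.71 for Slc2a1, -0.57 for Slc16a7, 0.64 for Slc16a3 and 0.87 for Slc2a6, and those of Slc16a3 and Slc2a6 were no longer called.

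**Figure D3:**
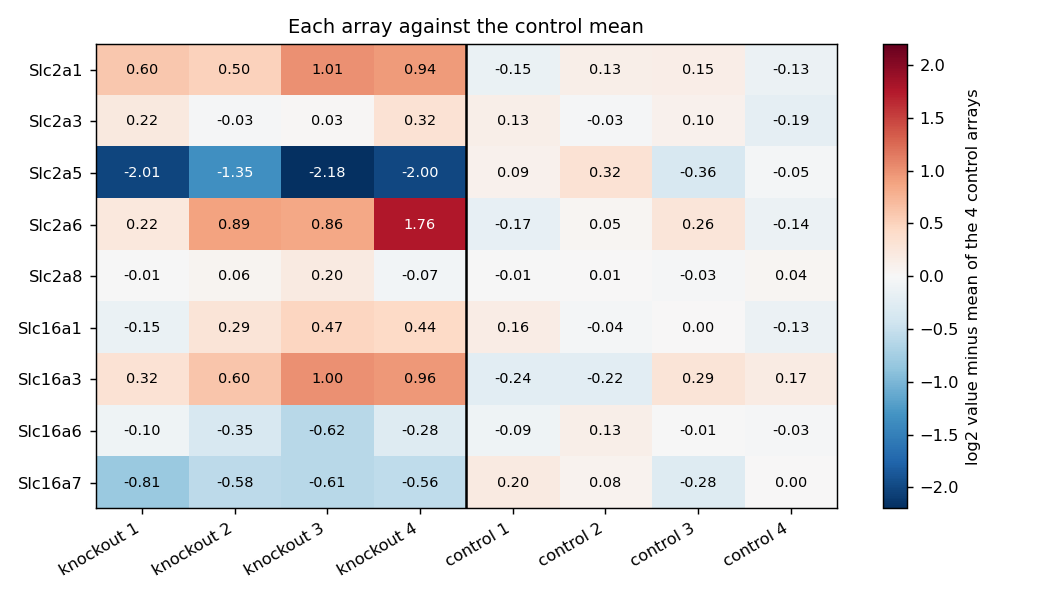
Log2 value of each array minus the mean of the 4 control arrays, for the 9 transporter genes (rows) and the 8 arrays (columns, knockouts left of the line and controls right); red is above and blue below the control mean. Slc2a5 lies between -2.18 and -1.35 in the 4 knockout arrays, and Slc2a6 reaches 1.76 in knockout 4.

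The remaining family genes mostly did not pass, which holds for genes at large too. Over all tested genes 5.38% were called higher and 4.17% lower. The counts of this list and of those that follow are to be read beside these shares. Of 16 other measured SLC2 and SLC16 genes 2 were called higher and 0 lower, with a median log2 change of 0.01. Slc16a10, which encodes an aromatic amino acid carrier, had 7.22, 7.13, 7.80 and 7.88 in knockout 1 to knockout 4, against 6.75, 6.95, 6.79 and 6.50 in control 1 to control 4, with no overlap and a change of 0.76 ± 0.17 (SE; limma adjusted p = 0.0133). Slc16a14, an orphan member, rose by 0.52 ± 0.13 (limma adjusted p = 0.0204), a call lost without knockout 3 (0.0706), control 1 (0.0547) or control 4 (0.0546), which left 1 gene called higher. Of 15 other sugar and monocarboxylate carriers, including the sodium-coupled SLC5 proteins, 0 were higher and 2 lower, with a median change of 0.01. Slc37a3, of the sugar-phosphate exchanger family, fell by 0.71 ± 0.13 (limma adjusted p = 0.00533). Slc5a10, a sodium-coupled carrier of mannose and fructose in kidney, fell by 0.54 ± 0.10 (limma adjusted p = 0.00552). Slc5a10 and Slc16a14 were dim, below the median gene in level. Slc5a10 had 4.95 in knockouts and 5.48 in controls on average, and Slc16a14 had 5.69 in knockouts and 5.17 in controls.

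Proteins that SLC16 carriers need to reach the membrane were not called. Bsg (basigin), the partner of MCT1 and MCT4, had 10.60 to 10.90 in knockouts and 10.49 to 10.65 in controls. Nptn (neuroplastin) had 9.60 in knockouts and 9.64 in controls on average. Emb (embigin), a partner of MCT2, had 5.62, 6.31, 5.60 and 6.65 in knockout 1 to knockout 4, against 5.21, 5.33, 5.85 and 5.06 in control 1 to control 4, with overlapping groups and a change of 0.68 (limma adjusted p = 0.0969). Its call appeared without knockout 1 (limma adjusted p = 0.0477) or control 3 (0.0429). The count in this list of 3 was therefore 0 or 1.

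Of 9 measured enzymes that act on hexoses after entry, 1 was called higher and 0 lower, with a median change of 0.06. Hk1, the hexokinase that phosphorylates glucose in brain cells, had 10.46, 10.39, 10.81 and 10.81 in knockout 1 to knockout 4, against 9.90, 9.73, 10.22 and 10.06 in control 1 to control 4, a change of 0.64 ± 0.13 (SE; limma adjusted p = 0.00866). The groups did not overlap. Its other probe set moved the other way, with 6.88 in knockouts and 7.27 in controls (limma adjusted p = 0.0406 over all probe sets). The mean of both was not called (limma adjusted p = 0.406). The direction of Hk1 is therefore not settled, and its call as higher holds for the brighter probe set alone. Khk, which phosphorylates fructose, had 8.08 in knockouts and 8.02 in controls and was not called (limma adjusted p = 0.810), beside the fall of the fructose carrier Slc2a5.

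Of 15 genes handling lactate, pyruvate and ketone bodies, 2 were called higher and 0 lower, with a median change of 0.07. Hcar2, a G-protein-coupled receptor for niacin and the ketone body beta-hydroxybutyrate, had 8.95, 9.20, 9.76 and 9.85 in knockout 1 to knockout 4, against 6.59, 6.93, 8.12 and 6.50 in control 1 to control 4. All knockouts exceeded all controls, control 3 being the highest control, and the change was 2.41 ± 0.31 (SE), or 5.30-fold (limma adjusted p = 0.000627). Ldha, the lactate dehydrogenase subunit that favours lactate formation, had 9.07, 9.07, 9.58 and 9.44 in knockout 1 to knockout 4, against 8.88, 8.80, 8.79 and 8.53 in control 1 to control 4. The groups did not overlap, and the change was 0.54 ± 0.13 (limma adjusted p = 0.0202). This call was lost without knockout 3 (limma adjusted p = 0.0642), knockout 4 (0.0580) or control 4 (0.0658), leaving 1 gene called higher. Ldhb, the subunit that favours lactate use, had 10.39 in knockouts and 10.76 in controls and missed the threshold (limma adjusted p = 0.0572). These values are from the brighter of its 2 probe sets alone. Without knockout 1 or control 3 the list had 1 gene called lower.

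Of 19 measured regulators of hexose carriers, 5 were called higher and 2 lower, with a median change of 0.06. Txnip, an arrestin that promotes removal of GLUT1 from the cell surface, had 10.00, 10.27, 9.93 and 9.94 in knockout 1 to knockout 4, against 11.05, 11.09, 10.80 and 11.27 in control 1 to control 4. It fell by 1.02 ± 0.12 on the log2 scale (SE; limma adjusted p = 0.000406), with no overlap between the groups. Hif1a, the oxygen-regulated subunit of HIF-1, had 9.54, 9.29, 9.65 and 9.72 in knockout arrays, against 8.34, 8.55, 8.64 and 8.49 in control arrays, and rose by 1.05 ± 0.11 (limma adjusted p = 0.000290). Egln3, a prolyl hydroxylase that marks HIF subunits for degradation, had 6.20, 6.31, 7.18 and 7.63 in knockouts, against 4.87, 5.07, 5.18 and 4.75 in controls, and rose by 1.86 ± 0.26 (limma adjusted p = 0.000944). In both genes every knockout array was above every control array. Tbc1d4, which restrains the movement of GLUT4 to the surface, fell by 0.54 ± 0.10 (limma adjusted p = 0.00372). Myc, Prkaa2 and Tbc1d1 complete the higher genes and are named only to account for the count, which was 3 without knockout 3.

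**Figure D4:**
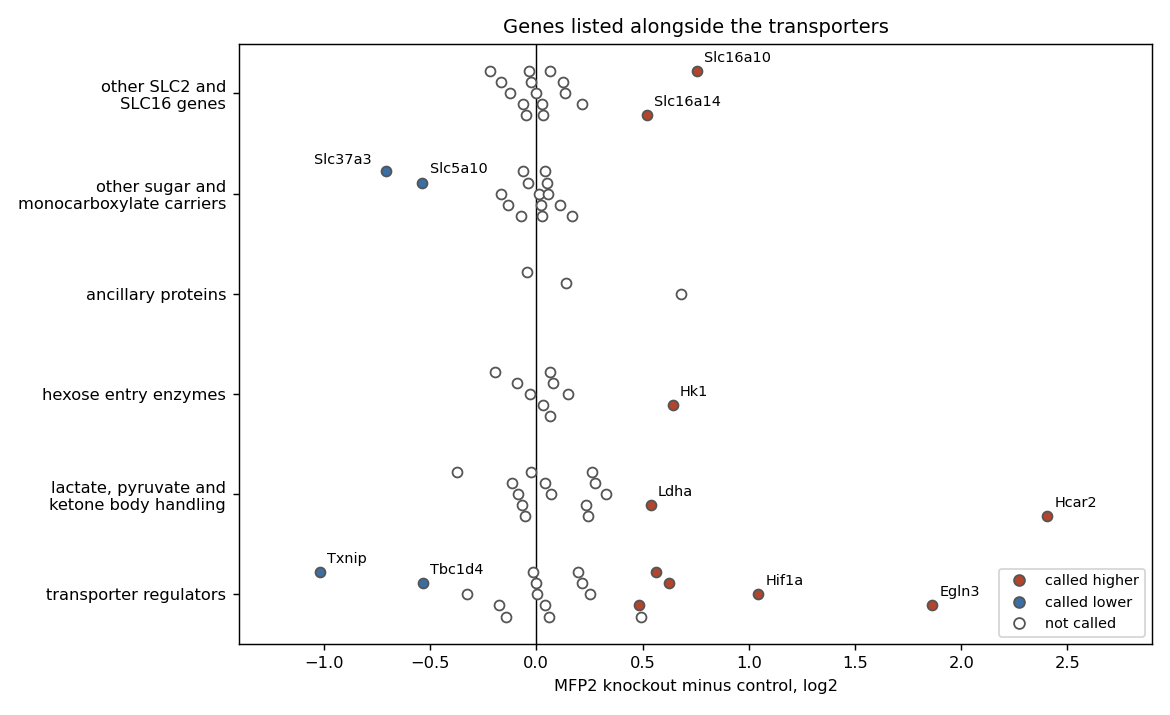
Change of every measured gene in 6 lists that accompany the transporters, knockout minus control on the log2 scale (horizontal axis); red points were called higher, blue lower and open points neither, and vertical position within a list has no meaning. Most points lie near 0, with Hcar2 at 2.41 and Egln3 at 1.86 on the right and Txnip at -1.02 on the left.

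For each called transporter, the genes with the closest profile over the 8 arrays were found by the root mean square difference between values centred on each gene's own mean. The search covered 17318 genes and left out members, predicted genes, olfactory receptor genes and small RNAs. The measure is on the log2 scale, and a difference between the groups contributes to it. Slc2a5 was closest to Gimap6 (0.13), Sema6d (0.20) and Bank1 (0.22). Slc2a1 was closest to Serp1 (0.06), Anxa3 (0.08) and Eif3e (0.08). The nearest to Slc16a3 were Minar1 (0.09), Ap1s1 (0.11) and Ifitm2 (0.11), and the nearest to Slc16a7 were Nlrp3 (0.07), Dusp7 (0.08) and Cflar (0.09). Slc2a6 had no neighbour closer than AB124611 (0.13), followed by Il13 (0.15) and Pilra (0.15).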

How the data were processed

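Each deposited value is the log2 expression of a probe set on one array, which the authors obtained by RMA according to what the submitters' processing notes name, as deposited. The software version and chip definition are not stated in the sources used here, and base 2 was taken from how the values range. Because RMA equalises arrays, a change common to every gene would be invisible, and changes of dim genes are compressed. RNA was amplified from 5.775 ng per sample, per the labels' protocols, which can add noise. Of 28874 probe sets, 21789 had 1 gene symbol, 1621 several and 5464 none; 0 probe sets with several symbols named a member. Symbols were checked by gene number against RefSeq (GRCm38.p6), of which 21698 matched and 0 changed. A gene was represented by its probe set with the highest mean, giving 19938 genes.

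Knockout minus control was fitted with limma 3.58.1 in R 4.3.3 (lmFit, eBayes, two-sided, no covariate, no filter) over all genes, with Benjamini-Hochberg adjustment over all of them and a threshold of 0.05. The number of arrays, 4 per group, limits the precision. The members and gene lists were chosen with earlier results of these data known. Named genes are the 9 members, Hsd17b4, up to 4 called genes of each list by adjusted p (or the lowest p where none passed) and 3 nearest profiles for each called member; a few others (Slc2a7, Bsg, Nptn, Khk, Ldhb, Myc, Prkaa2, Tbc1d1 and single markers) were added after their values were seen. Pairs of members were compared by an exact permutation test over arrays, whose smallest two-sided p is 0.0286. Alternatives were a filter on dim genes, 3 normalizations, other uses of probe sets, a trended robust prior, weighting of arrays, a block on replicate number, an exact test, each array left out in turn, and control 3 and knockout 2 left out together. Promoter windows were read from RefSeq tables with Python 3.11.15, and figures were drawn with matplotlib 3.10.9.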

Additional observations from a re-analysis of the deposited data

Results flagged for a closer look

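Among 74 groups of 4 arrays, for the genes named by rule, 1 value lay far from the others of its group: Sema6d, a semaphorin gene listed as a near profile of Slc2a5, measured 7.14 in control 3 and 7.88 in the next lowest control array, a gap of 0.859 of the range of the group. Chance flags about 1 in 20 groups. No value of the 9 transporter genes was far from its group by this measure.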

How the results depend on the processing

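Over 18 alternatives, the 3 transporter genes called higher numbered 1 to 4 and the 2 called lower numbered 2 to 3. Slc2a1, Slc2a5 and Slc16a7 kept direction and call in all 18, with changes of 0.68 to 0.90, -2.18 to -1.78 and -0.75 to -0.57 and limma adjusted p of at most 0.0120, 0.00223 and 0.0159. For each of them the largest change came without control 3 and knockout 2 together, a choice that widens these differences. With 1 array left out, the count called higher ran from 1 (without knockout 3, control 1 or control 2) to 4 (without knockout 1). All genes called ran from 1260 (without knockout 3) to 1982 (without knockout 1), against 1905. Slc2a8 changed sign without knockout 3, and its changes with 1 array left out ran from -0.0063 to 0.083. The dim-gene filter, which kept 9969 genes, removed Slc2a3 and Slc16a1 and left 1 other SLC2 or SLC16 gene called higher instead of 2, 1 other carrier called lower instead of 2 and 3 regulators called higher instead of 5, because fewer list genes were tested. In the lactate and ketone list 1 gene was called lower, instead of 0, under the dim-gene filter, quantile normalization, cyclic loess, the trended robust prior, array weights and the replicate block; the cause was not tested. The exact permutation test gave p = 0.0571 for Slc2a6 and 0.0286 for Slc16a6. With the replicate block, 3 transporter genes were higher and 2 lower and 1855 genes were called. Same-numbered arrays correlated at 0.158, -0.0645, 0.00587 and 0.00783 in their deviations from the group means. Not every array correlated best with its own number, but knockout 1 and control 1 did, with the highest value of all. Whether same-numbered arrays were processed together was not tested, and such correlations cannot decide it.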
